A study of Rattus norvegicus with 11 samples.

Results

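The matrix metalloproteinases Mmp2, Mmp3, Mmp10, Mmp13 and Mmp14, their inhibitors Timp1, Timp2 and Timp3, and the related proteases Adamts1 and Adamts9 were followed through the ileum of rats with severe acute pancreatitis (SAP). These 10 genes were chosen by name, as proteases of the extracellular matrix and their tissue inhibitors. All 10 were found among the 24481 genes with read counts and among the 24205 genes with FPKM values (a level of fragments, scaled by the authors to gene length and to library size).

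RNA was sequenced from 11 Sprague Dawley rats, described as males of 6 to 8 weeks. The control group (3 libraries) received vehicle. The SAP group (4 libraries) received 3% sodium taurocholate, injected backwards into the pancreatic duct, and then vehicle. The JZL184 group (4 libraries) received the same injection into the duct and then JZL184, an inhibitor of the enzyme monoacylglycerol lipase (MAGL), at 10 mg/kg into the abdomen. Vehicle or JZL184 was given 24 h after surgery and the ileum was taken 24 h later. The sample labels name a control plasmid and oil where the methods describe vehicle. A sham operation of the control rats was not described in the sources used here, so surgery and pancreatitis cannot be told apart in comparisons with the control group.

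Matrix metalloproteinases are zinc proteases that are made as inactive precursors and cut collagens, gelatin, proteoglycans and other matrix proteins. TIMPs bind the active proteases and block them, so that the balance of the enzyme and inhibitor families is held to set how fast matrix is turned over. In the intestine both families are made by stromal, epithelial and inflammatory cells, with stromelysins and collagenases known from inflamed or ulcerated mucosa, while ADAMTS proteases cut large proteoglycans such as versican.

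Between 26341299 and 33847135 reads lay on genes in each library. In a chi-square test of the counts over genes with 20 or more reads, control libraries 1 and 2 differed by 2.81 per gene, against 77.5 to 563 for the other pairs within a group. They were summed (FPKM averaged) and taken as 1 sample, so control has n = 2. Over Eif2s3y, Kdm5d and Uty, which are Y-linked, SAP library 2 had 20 reads against 1222 to 4665 in every other library, which goes against its description as a male. SAP libraries 1 and 2 stood apart from SAP libraries 3 and 4, and the fits of the 10 genes were also made without them. The labels call the samples intestinal epithelial cells, but the libraries also held smooth muscle, fibroblast, endothelial and macrophage markers, as in whole ileum. In such bulk tissue, fewer cells of a type and less RNA per cell cannot be told apart. Nothing says which rats shared a litter or a day, so p-values measure the spread between these samples.

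Mmp13, Mmp3 and Mmp10 lie in this order in one run of metalloproteinase genes on chromosome 8, and their promoters are shown because they share an AP-1 motif that the other promoters found lack. Of the 10 genes, 8 had an entry in the RefSeq promoter table of the GRCr8 build, in which Mmp2 and Mmp14 were not matched. The 90 bases before the transcription start of each are printed 5′ to 3′ on the plus strand, at chr8:12925191-12925280 for Mmp3, chr8:12974617-12974706 for Mmp10 and chr8:12782739-12782828 for Mmp13. Capitals mark TGAGTCA or TGACTCA, the letters of the motif known for the transcription factor AP-1, and TATAAA, the letters of a TATA box.
Mmp3: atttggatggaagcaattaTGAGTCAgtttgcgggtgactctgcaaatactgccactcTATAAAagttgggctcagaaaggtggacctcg
Mmp10: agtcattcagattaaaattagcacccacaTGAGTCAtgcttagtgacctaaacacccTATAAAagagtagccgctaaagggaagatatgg
Mmp13: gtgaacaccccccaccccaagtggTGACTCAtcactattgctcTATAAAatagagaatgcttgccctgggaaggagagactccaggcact
The AP-1 letters began 71 bases before the start in Mmp3, 61 bases before it in Mmp10 and 66 bases before it in Mmp13, and TATAAA began 32, 33 and 47 bases before the start. Because TGAGTCA and TGACTCA are each other's complement, searching for both covers both strands. Of 33469 promoters in the table, 4.05% held either word in the 250 bases before the start, and 1.58% held it in the last 100 bases. Both the AP-1 letters and TATAAA stood in the last 100 bases of 0.0896% of promoters. The promoters of Timp1, Timp2, Timp3, Adamts1 and Adamts9 did not hold the AP-1 letters in the 250 bases before the start, while that of Adamts1 held TATAAA 70 bases before it. These matches describe sequence and are not measured binding.

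The 3 genes with these letters differed widely in level. Mmp10 (stromelysin-2, which cuts proteoglycans and activates other metalloproteinases) had the highest mean of the 5 metalloproteinases in each group, at 30.3 ± 3.42 FPKM (SD, n = 2) in control, 47.0 ± 8.73 FPKM in SAP and 38.1 ± 23.1 FPKM in JZL184 rats (SD, n = 4 each). Mmp13 (collagenase-3) and Mmp3 (stromelysin-1) stayed below 2 FPKM on average in control and SAP rats. The plot of FPKM by library shows all 10 genes.

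**Figure D1:**
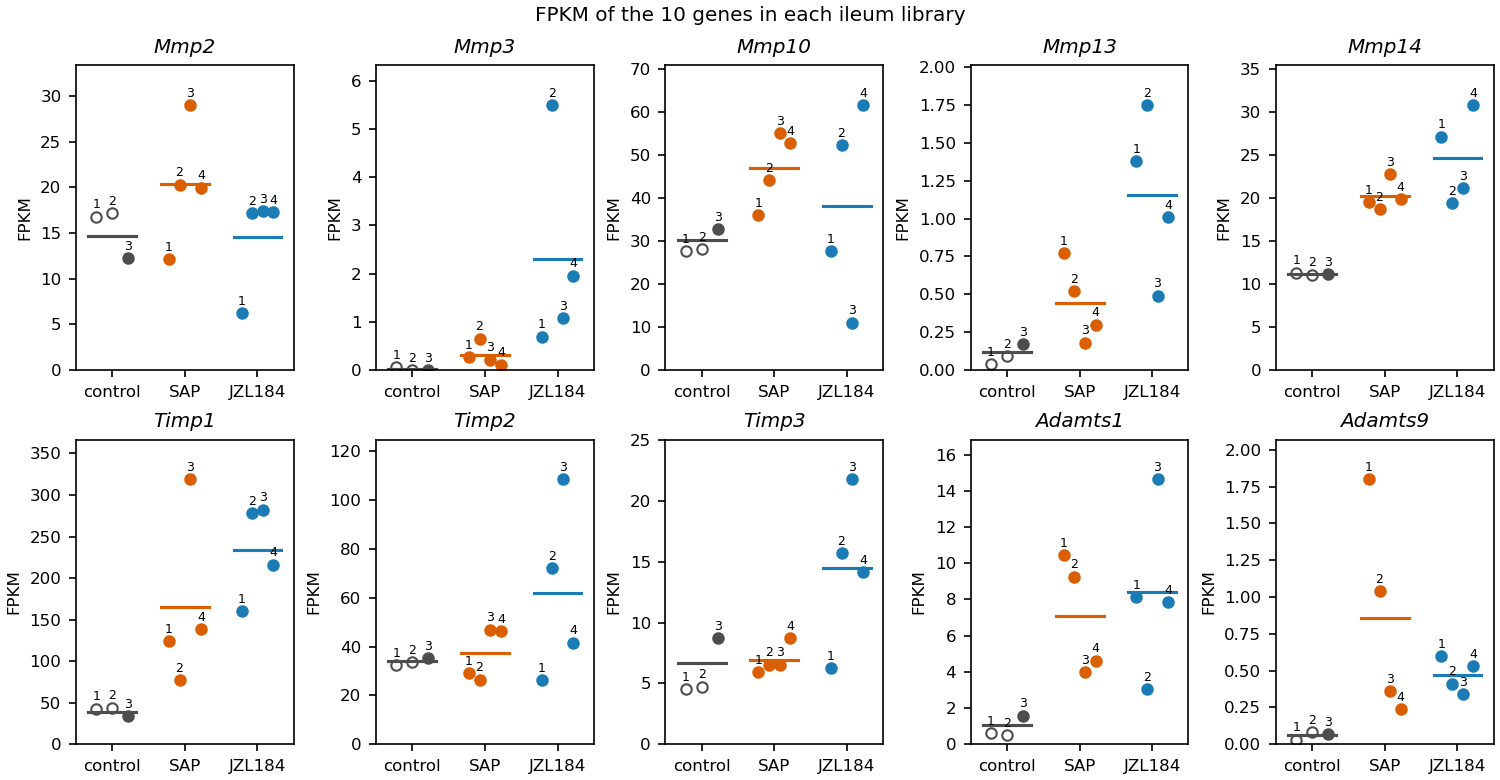
Each panel plots the FPKM of 1 gene (linear axis from 0) in the control, SAP and JZL184 groups. Points are libraries with their replicate number, open points are control libraries 1 and 2 (averaged to 1 sample), and lines are group means; Mmp3 in all 4 JZL184 libraries (0.69 to 5.50) lay above all SAP libraries (0.11 to 0.65), and Timp1 in every SAP and JZL184 library lay above every control library.

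Stromelysin-1 was nearly absent from control rats. Mmp3 was at 0.06, 0 and 0 FPKM in control libraries 1 to 3, at 0.26, 0.65, 0.21 and 0.11 FPKM in SAP libraries 1 to 4, and at 0.69, 5.50, 1.07 and 1.96 FPKM in JZL184 libraries 1 to 4. The 3 groups did not overlap, and control libraries held 3 Mmp3 reads in all, against 77 in SAP and 514 in JZL184 libraries. Per read sequenced, the SAP group held 17.9 times as many Mmp3 reads as the control group (95% exact interval 5.91 to 88.8) and the JZL184 group 131 times as many (44.7 to 639). These intervals cover counting error only, and not the spread between rats. In edgeR's quasi-likelihood test, adjusted by Benjamini-Hochberg over all genes tested, Mmp3 rose in JZL184 rats against control (log2 fold change 6.99, SE 1.41, adjusted p = 0.0476), where the fitted value depends on the prior count because control held so few reads. For SAP against control the Mmp3 estimate was 3.87 (SE 1.08, edgeR adjusted p = 0.459, DESeq2 adjusted p = 0.0634), which was not called. Between JZL184 and SAP rats, Mmp3 had a log2 fold change of 3.18 (SE 0.78) with an edgeR adjusted p of 0.0942, which missed the threshold. An exact two-sided permutation test of its FPKM between these groups gave p = 0.0286, the smallest value that 4 against 4 libraries can give. It was the only one below 0.05 among such tests of the 10 genes for JZL184 against SAP. The tests against control could not go below 0.0667 and so could not pass. DESeq2 gave Mmp3 a log2 fold change of 3.20 for JZL184 against SAP with an adjusted p of 7.97e-04 (0.000797 to 0.241 over 18 alternatives). JZL184 library 2 held the highest Mmp3 value, and without it the log2 fold change against SAP was 2.17.

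Collagenase-3 took the same order of groups at a low level. Mmp13 stood at 0.04, 0.09 and 0.17 FPKM in the control libraries, at 0.77, 0.52, 0.18 and 0.30 FPKM in the SAP libraries, and at 1.38, 1.75, 0.49 and 1.01 FPKM in the JZL184 libraries. All SAP and JZL184 libraries lay above control, while SAP and JZL184 overlapped through SAP libraries 1 and 2 and JZL184 library 3. By reads, 160 in SAP and 376 in JZL184 libraries stood against 24 in control, ratios of 4.66 (95% exact interval 3.02 to 7.48) and 12.0 (7.95 to 19.0). These intervals too cover counting error only, and not the spread between rats. For SAP against control the fitted log2 fold change was 1.80 (SE 0.71, edgeR adjusted p = 0.459, DESeq2 adjusted p = 0.228), which was not called. The log2 fold change of Mmp13 in JZL184 rats against control was 3.37 (SE 0.74, edgeR adjusted p = 0.0571), just outside the threshold.

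Stromelysin-2 spread widely within the JZL184 group. Mmp10 was at 27.71, 28.12 and 32.75 FPKM in control libraries, at 35.96, 44.16, 55.12 and 52.71 FPKM in SAP libraries and at 27.57, 52.23, 10.99 and 61.65 FPKM in JZL184 libraries. JZL184 library 4 lay above and library 2 within the SAP range, library 1 at the control level, and library 3 below every other library of the series. The fitted difference was 0.48 (SE 0.32) on the log2 scale for SAP against control and -0.11 (SE 0.50) for JZL184 against SAP, with edgeR adjusted p-values of 0.485 and 0.910. Mmp10 did not overlap between SAP and control in FPKM but did in normalised read counts.

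The run on chromosome 8 also holds metalloproteinases outside the 10 genes, which did not share one pattern. In its order along the chromosome (Mmp13, Mmp12, Mmp3, Mmp10, Mmp8, Mmp27, Mmp20, Mmp7 among the genes in the files), Mmp27 and Mmp20 were at or near 0 FPKM in every group. Mmp7, the matrilysin of Paneth cells, ranged from 98.3 to 109 FPKM in control, from 40.9 to 120 FPKM in SAP and from 3.67 to 77.9 FPKM in JZL184 libraries. Every JZL184 library of Mmp7 lay below every control library, on the opposite side of control from Mmp3 and Mmp13. In normalised read counts, 19.3% of all genes were lower without overlap in that comparison. The macrophage elastase Mmp12 and the neutrophil collagenase Mmp8 overlapped between SAP and JZL184 rats. Mmp12 had medians of 0.22, 0.615 and 0.84 FPKM in control, SAP and JZL184 libraries, the order of groups seen for Mmp3 and Mmp13. Both Mmp12 and Mmp8 were higher without overlap in SAP against control (log2 fold changes 1.68 and 2.29), where 11.3% of all genes were, and neither was called by edgeR.

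**Figure D2:**
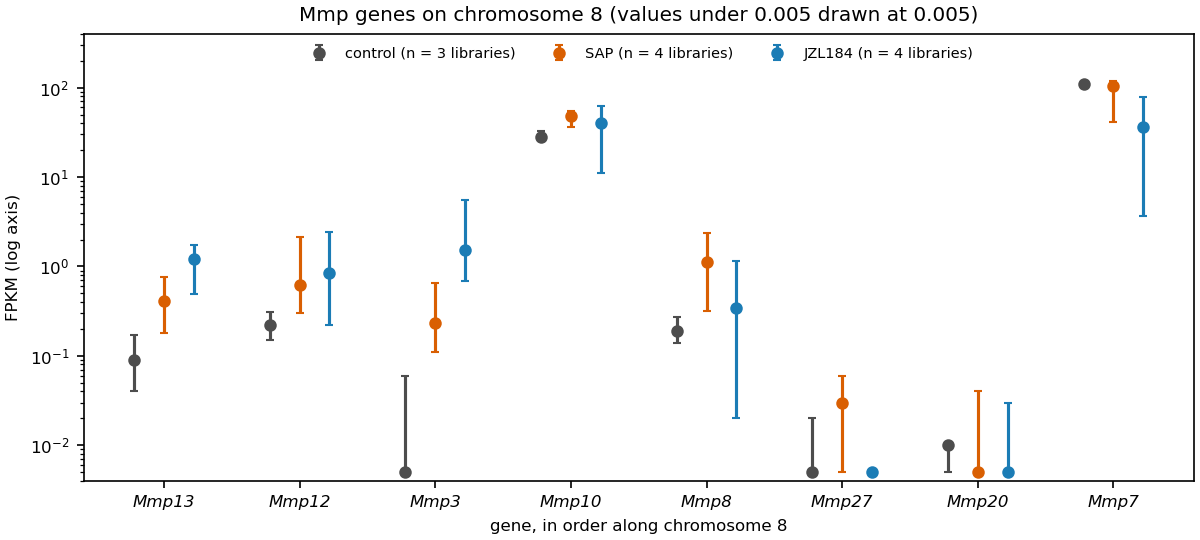
Median FPKM (points, log axis) with the lowest and highest library (bars) of the Mmp genes of the chromosome 8 run in the control, SAP and JZL184 groups, in gene order; distances between genes are not to scale. Mmp3, Mmp12 and Mmp13 had medians that stood higher in SAP than in control and higher again in JZL184, while the Mmp7 median was 109 in control and 36.3 in JZL184 libraries.

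The next metalloproteinases are gelatinase A and its membrane-bound activator. Mmp2, which cuts gelatin and basement membrane collagen, was at 16.78, 17.19 and 12.27 FPKM in control, at 12.11, 20.29, 29.01 and 19.94 FPKM in SAP and at 6.24, 17.14, 17.35 and 17.31 FPKM in JZL184 libraries. All groups overlapped, 3 of 4 JZL184 libraries agreed within 0.21 FPKM, and JZL184 library 1 was the lowest of the series. The 3 fitted differences of Mmp2 lay between -0.32 and 0.31 on the log2 scale, with edgeR adjusted p-values of 0.659 or more. 

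Mmp14 (MT1-MMP, which activates the Mmp2 precursor at the cell surface together with Timp2) had control values close to each other. It was at 11.29, 11.08 and 11.13 FPKM in control, at 19.51, 18.68, 22.73 and 19.82 FPKM in SAP and at 27.11, 19.33, 21.12 and 30.77 FPKM in JZL184 libraries. Every SAP and every JZL184 library lay above every control library, whereas SAP and JZL184 overlapped. The log2 fold change was 0.69 (SE 0.28, edgeR adjusted p = 0.459) for SAP against control and 1.10 (SE 0.30, edgeR adjusted p = 0.0788) for JZL184 against control. DESeq2 gave the last an adjusted p of 0.0366 (0.000953 to 0.582 over 18 alternatives).

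Among the inhibitors, Timp1, the inducible and secreted form, had the highest mean of the 10 genes in each group. It was at 42.79, 43.90 and 33.83 FPKM in control, at 124.32, 76.85, 318.98 and 138.67 FPKM in SAP and at 160.04, 278.39, 282.50 and 216.12 FPKM in JZL184 libraries. The lowest SAP library lay above the highest control library, and SAP library 3 exceeded all JZL184 libraries. Timp1 rose in JZL184 rats against control (log2 fold change 2.57, SE 0.40, edgeR adjusted p = 0.0239). For SAP against control the estimate was 1.93 (SE 0.62, edgeR adjusted p = 0.459), and without SAP libraries 1 and 2 it was 2.47 and was called (edgeR adjusted p = 0.0162, with 1.14e-08 to 0.943 over 20 alternatives).

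Timp2, which is widely made by stromal cells, and Timp3, which is bound to the matrix, had estimates near 0 for SAP against control. Timp2 was at 32.42, 33.48 and 35.27 FPKM in control, at 29.16, 26.35, 46.95 and 46.38 FPKM in SAP and at 26.12, 72.05, 108.51 and 41.54 FPKM in JZL184 libraries. Timp3 was at 4.50, 4.74 and 8.69 FPKM in control, at 5.91, 6.53, 6.54 and 8.74 FPKM in SAP and at 6.23, 15.72, 21.78 and 14.13 FPKM in JZL184 libraries. In both genes JZL184 library 3 was highest and JZL184 library 1 lay within or below the SAP range, so that the groups overlapped. The log2 fold change of Timp3 for JZL184 against SAP was 1.22 (SE 0.38, edgeR adjusted p = 0.140), and without JZL184 library 1 it was 1.49 and was called (edgeR adjusted p = 0.0333, with 0.0333 to 0.342 over 18 alternatives). SAP against control gave -0.02 (SE 0.38) for Timp2 and -0.08 (SE 0.36) for Timp3, signs that changed with the processing.

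Adamts1 and Adamts9, both of which cut versican, were low in control rats. Adamts1 was at 0.62, 0.49 and 1.57 FPKM in control, at 10.46, 9.26, 3.98 and 4.62 FPKM in SAP and at 8.13, 3.03, 14.64 and 7.85 FPKM in JZL184 libraries. Adamts9 was at 0.03, 0.08 and 0.07 FPKM in control, at 1.80, 1.04, 0.36 and 0.24 FPKM in SAP and at 0.60, 0.41, 0.34 and 0.53 FPKM in JZL184 libraries. In both genes every SAP and JZL184 library lay above control, SAP libraries 1 and 2 lay above SAP libraries 3 and 4, and SAP and JZL184 overlapped. Adamts9 rose in JZL184 rats against control (log2 fold change 2.84, SE 0.43, edgeR adjusted p = 0.0239). Adamts1 had a log2 fold change of 2.94 there (SE 0.64, edgeR adjusted p = 0.0569). For SAP against control the estimates were 2.57 (SE 0.58) for Adamts1 and 3.52 (SE 0.88) for Adamts9, neither called by edgeR. DESeq2 called both, with adjusted p-values of 0.00109 (2.62e-06 to 0.943 over 20 alternatives) and 6.16e-04 (1.82e-05 to 0.943). Without SAP libraries 1 and 2 these estimates were 1.99 and 2.14 in edgeR, again not called, and DESeq2 again called both. The Adamts9 difference between JZL184 and SAP was -0.64 (SE 0.54) with all libraries and 0.72 without SAP libraries 1 and 2.

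Read by comparison, SAP against control asks what pancreatitis and the surgery together do to the ileum. By edgeR, 0 of the 10 genes were called, at an adjusted p below 0.05 and a change of more than 2-fold, and the background was 0% of 16029 genes. Of the 10 genes, 6 had an unadjusted p below 0.05, where 9.09% of all genes did. Limma-voom called 0 of the 10 and 0.0873% of all genes. DESeq2 called 2 of the 10, Adamts1 and Adamts9, and 0.861% of all genes as higher. In normalised read counts, Mmp3, Mmp13, Mmp14, Timp1, Adamts1 and Adamts9 were higher in SAP without overlap, 6 of 10 genes, where 11.3% of all genes were. The median log2 fold change was 1.24 over the 10 genes and 0.06 over all genes tested.

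JZL184 against SAP asks what the inhibitor changes in sick rats. By edgeR, 0 of the 10 genes were called (background 0% of 15308 genes). Of the 10 genes, 3 had an unadjusted p below 0.05, where 21.3% of all genes did, and limma-voom called 0 of the 10 and 4.57% of all genes. DESeq2 called 3, which were Mmp3, Mmp13 and Timp3, and it called 3.57% of all genes as higher. Only Mmp3 of the 10 genes was higher without overlap, where 6.23% of all genes were. The median log2 fold change was 0.55 over the 10 genes and -0.05 over all genes. Without JZL184 library 1, edgeR called 2 of the 10 genes, Mmp3 (log2 fold change 3.52, adjusted p = 0.0396) and Timp3, among 655 of 15540 genes called. Because this comparison shares the SAP libraries with the one above, their values are not independent.

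Without SAP libraries 1 and 2, edgeR called 1 of the 10 genes for SAP against control (Timp1, among 74 of 15362 genes) and 0 for JZL184 against SAP. Mmp3 did not pass the filter on low counts for SAP against control there, and its estimate for JZL184 against SAP was 3.94. For SAP against control, Mmp13 was then 1.08, Mmp10 0.77 and Mmp2 0.66. For JZL184 against SAP, Mmp13 was 2.33, Adamts1 0.97, Timp1 0.12 and Timp2 0.47. None of these estimates but that of Timp1 for SAP against control was called by edgeR.

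JZL184 against control, which shares libraries with both, spans surgery, pancreatitis and treatment together. EdgeR called 3 of the 10 genes as higher (Mmp3, Timp1 and Adamts9) against 1.02% of 15916 genes, and DESeq2 called 6 (Mmp13, Mmp14 and Adamts1 besides) against 5.81% of genes. The genes higher without overlap in normalised read counts were Mmp3, Mmp13, Mmp14, Timp1, Adamts1 and Adamts9, 6 of 10, where 18.9% of all genes were. The median log2 fold change was 1.84 over the 10 genes and 0.08 over all genes.

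The 3 edgeR calls rested on few libraries. With control library 3, JZL184 library 2 or JZL184 library 4 left out, none of the 10 genes was called, where 1, 25 and 78 of all genes were. The adjusted p-values without these libraries were 0.208, 0.0713 and 0.0897 for Mmp3, 0.183, 0.0615 and 0.0623 for Timp1, and 0.173, 0.0632 and 0.0648 for Adamts9. With control libraries 1 and 2 both left out they were 0.494, 0.350 and 0.388. Without JZL184 library 1, edgeR called 6 of the 10 genes (Mmp13, Timp3 and Adamts1 besides) among 1867 of 15623 genes, and without JZL184 library 3 it called 5 (Mmp13 and Adamts1 besides) among 860 of 15762. Mmp3 alone also lost its call without control library 2 (0.0631), and Timp1 and Adamts9 lost theirs when all 3 groups entered 1 fit (0.0531 and 0.0643). Without control library 1, which held all 3 control reads of Mmp3, the fitted log2 fold change of Mmp3 was 10.1, which is no bound. On FPKM, exact two-sided permutation tests against control cannot go below p = 0.0667, the value that Mmp14, Timp1 and Adamts9 reached in JZL184 rats and Mmp14 in SAP rats.

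**Figure D3:**
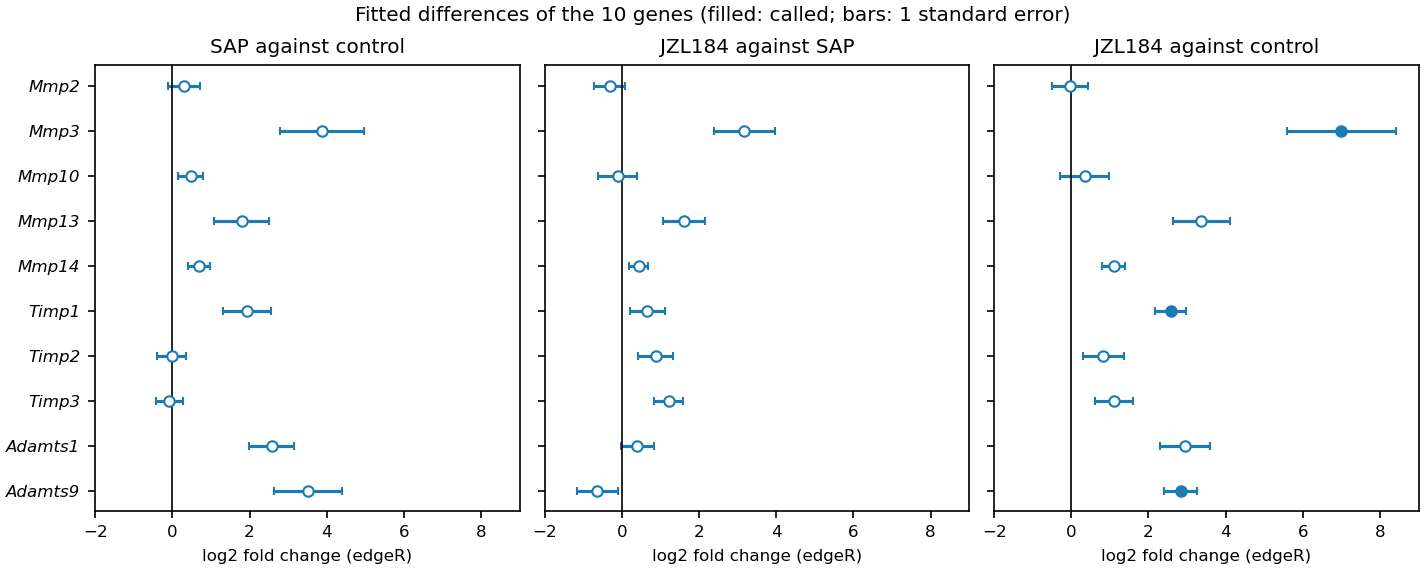
Log2 fold changes (x axis, edgeR) of the 10 genes in the 3 comparisons, with bars of 1 standard error and filled points for called genes. Filled points stand only in JZL184 against control, at 6.99 for Mmp3, 2.57 for Timp1 and 2.84 for Adamts9, and Mmp2 lies within 0.32 of 0 in each comparison.

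The chosen members of each family were also summed within each library, and these sums do not cover whole families. Mmp7 lies outside them, at 104 ± 7.63 FPKM (SD, n = 2) in control, 91.8 ± 35.2 FPKM in SAP and 38.5 ± 30.6 FPKM in JZL184 rats (SD, n = 4 each). The 5 metalloproteinases summed to 56.2 ± 0.099 FPKM (SD, n = 2) in control, 88.3 ± 16.2 FPKM in SAP rats and 80.7 ± 28.6 FPKM in JZL184 rats (SD, n = 4 each). The 3 inhibitors summed to 79.4 ± 2.21 FPKM in control, 209 ± 114 FPKM in SAP and 311 ± 98.3 FPKM in JZL184 rats. The ratio of the sum of these 5 proteases to that of these 3 inhibitors was 0.701, 0.688 and 0.724 in the control libraries. It was 0.430, 0.768, 0.288 and 0.479 in the SAP libraries, and 0.327, 0.262, 0.124 and 0.415 in the JZL184 libraries. Every JZL184 library lay below every control library, and SAP library 2 lay above control, so that SAP overlapped both other groups. No p is given for these sums, which measure RNA and not protease activity.

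Timp1 and Mmp10 held large shares of these sums. Of the sum of the 3 inhibitors, Timp1 held 48.5% ± 7.13 (SD, n = 2) in control, 76.3% ± 7.11 in SAP rats and 76.8% ± 6.29 in JZL184 rats (SD, n = 4 each), without overlap between control and either other group. Timp1 exceeded Timp2 in every library but control library 3, where Timp2 was the highest of the 10 genes. Mmp10 held 49.6% to 58.1% of the metalloproteinase FPKM in control libraries and 51.4% to 56.8% in SAP libraries, against 21.5% in JZL184 library 3 and 43.8% to 54.7% in the other JZL184 libraries.

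**Figure D4:**
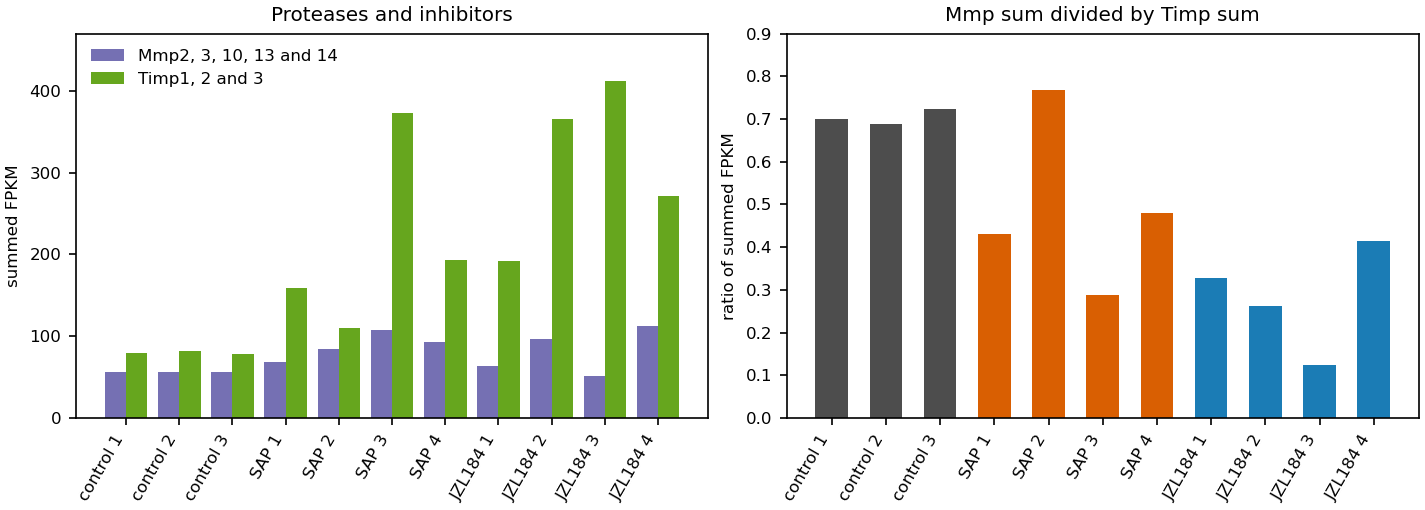
Left, summed FPKM of the 5 metalloproteinases and of the 3 inhibitors in each library; right, the first sum divided by the second, both with bars from 0. The ratio lay between 0.688 and 0.724 in the control libraries and between 0.124 and 0.415 in the JZL184 libraries, with SAP library 2 at 0.768 and the other SAP libraries at 0.288 to 0.479.

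Most other metalloproteinases had lower estimates in JZL184 rats. Of 18 further Mmp genes, 16 were in the files and 13 passed the filter on low counts. Against control, 1 of the 13 was called, and Mmp28 (epilysin) fell by 2.92 on the log2 scale (edgeR adjusted p = 0.0445), where 1.14% of all genes were called lower. In 8 of the 13 genes the JZL184 libraries lay below control without overlap, where 19.3% of all genes did, and in 0 above it. DESeq2 called 4 of the 13 lower, where 878 of 17587 genes were, and the median log2 fold change was -1.19. Against SAP 0 of the 13 were called by edgeR and 3 were called lower by DESeq2 (627 of 18380 genes). The median was -1.08, and Mmp15 and Mmp17, both membrane-bound, had the smallest p-values (log2 fold changes -1.15 and -1.40, edgeR adjusted p = 0.0913 and 0.113). In SAP against control, 0 were called, and Mmp24 and Mmp28 had estimates of -1.90 and -1.39 with a median of -0.14.

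In the ADAMTS family, 13 of 17 further genes were tested in JZL184 rats against control. Adamts4, an aggrecanase, rose by 4.76 on the log2 scale (SE 0.49, edgeR adjusted p = 0.0112), from 0.060 FPKM in control to 1.64 ± 0.26 FPKM (SD, n = 4) in JZL184 rats, with SAP rats at 0.508 ± 0.22 FPKM (SD, n = 4). Its 3 groups did not overlap. It was the only edgeR call among the 13, where 1.02% of all genes were called higher. DESeq2 called 4 of the 13 higher, against 5.81% of all genes. Higher without overlap were 8 of the 13, and 18.9% of all genes. Against SAP, edgeR called 0, with Adamts4 at 1.89 (edgeR adjusted p = 0.0851) and Adamts8 at 1.22. DESeq2 called these 2, and 3.57% of all genes as higher. In SAP against control edgeR called 0 of 15, and Adamts4 and Adamts5 had estimates of 2.91 and 1.91. DESeq2 called 1 of the 15 there, Adamts4, and 0.861% of all genes as higher. Of 8 ADAM proteases tested, Adam9 was called higher in JZL184 rats against control (log2 fold change 1.92, edgeR adjusted p = 0.0489), and 0 in the other comparisons, where Adam12 (2.51) and Adam9 (2.82) led SAP against control and Adam10 (-1.93) and Adam12 (-1.46) led JZL184 against SAP. Without SAP libraries 1 and 2, Adam12 was 1.75 and Adam9 0.80 for SAP against control. For JZL184 against SAP, Adam10 then changed sign to 0.38 and Adam12 was -0.72.

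Of 12 other regulators of matrix proteolysis, those called higher in JZL184 rats against control included Plat (tissue plasminogen activator, log2 fold change 3.15), Thbs1 (thrombospondin-1, 2.97) and A2m (alpha-2-macroglobulin, a broad protease trap, 2.45), and 0 were called lower. Their edgeR adjusted p-values were 0.0156, 0.0489 and 0.0427. Of all genes, edgeR called 1.02% higher and 1.14% lower in that comparison. Plat stood at 3.29 ± 0.61 FPKM (SD, n = 2) in control rats, at 16.1 ± 9.27 FPKM in SAP rats and at 29.7 ± 8.16 FPKM in JZL184 rats (SD, n = 4 each). In JZL184 against SAP edgeR called 0 of the 12, and A2m was higher without overlap (log2 fold change 1.43, edgeR adjusted p = 0.0909), where 6.23% of all genes were. DESeq2 called A2m there (adjusted p = 0.00502), and 3.57% of all genes as higher. In SAP against control, edgeR called 0 of the 12, with Plat at 2.09. DESeq2 called Plat there (adjusted p = 0.0150), and 0.861% of all genes as higher.

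Among 14 cytokines and transcription factors known to induce metalloproteinases, edgeR called 3 higher in JZL184 rats against control and 0 lower. It called 1.02% of all genes as higher there, and DESeq2 called 6 of the 14 higher, against 5.81% of all genes. Il6 rose by 6.18, the AP-1 subunit Fosl1 by 3.63 and Il1a by 3.53 on the log2 scale (edgeR adjusted p = 0.0372, 0.0156 and 0.0266). Against SAP, edgeR called 0, while DESeq2 called 6 of the 14 higher, against 3.57% of all genes. The median was 0.90, and 5 were higher without overlap, where 6.23% of all genes were. Tnf (2.77) and Il1a (1.98) had the smallest edgeR p-values there. SAP against control gave 0 calls by edgeR, a median of 0.19 and the smallest edgeR p-values for Il6 (4.19) and Fosl1 (1.83). DESeq2 called 1 of the 14 there, Il6 (adjusted p = 0.00994), and 0.861% of all genes as higher.

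Among 17 substrates, edgeR called 2 in JZL184 rats against control, where it called 2.16% of all genes. Fn1 (fibronectin) rose by 2.05 and Col1a1 (a chain of type I collagen) fell by 2.49 on the log2 scale, with edgeR adjusted p-values of 0.0357 and 0.0462. DESeq2 called 2 higher and 2 lower there (10.8% of all genes called). In the other comparisons edgeR called 0 of the 17, and 0% of all genes. For JZL184 against SAP, the fibrillar collagens Col3a1 (-1.42) and Col1a2 (-1.11) led. DESeq2 called them among 4 lower, where 627 of 18380 genes were. For SAP against control, Vcan (3.36), the versican that both Adamts1 and Adamts9 cut, and Fn1 (1.70) led. DESeq2 called these 2 higher (adjusted p = 1.07e-05 and 0.0295), and 0.861% of all genes as higher. Versican stood at 0.113 ± 0.018 FPKM (SD, n = 2) in control rats, at 1.34 ± 0.64 FPKM in SAP rats and at 0.585 ± 0.29 FPKM in JZL184 rats (SD, n = 4 each). Without SAP libraries 1 and 2 the Vcan estimate for SAP against control was 3.14.

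Markers of other cell types differed between the groups too. The 6 neutrophil markers summed to 11.9 to 12.2 FPKM in control, 17.9 to 86.6 FPKM in SAP and 17.4 to 264 FPKM in JZL184 libraries, with Elane at 0 in 7 libraries and S100a8 at 0 in 1. S100a8 had log2 fold changes of 5.58, 1.79 and 7.35 in the 3 comparisons in the order above and S100a9 4.65 and 6.05 against control, none called by edgeR. DESeq2 called both higher in SAP and in JZL184 rats against control, among 3 of the 5 neutrophil markers tested in each. It called 0.861% and 5.81% of all genes as higher there. Without SAP libraries 1 and 2, edgeR called S100a8 and S100a9 for SAP against control (5.49 and 4.23), and 0.482% of all genes. Among the other neutrophil markers, Mpo was lower without overlap in SAP (-1.36) and JZL184 (-1.38) against control, Csf3r was higher without overlap in both (2.64 and 1.84), and Ncf1 overlapped. Of all genes, 11.3% in SAP and 18.9% in JZL184 were higher without overlap against control, and 19.3% were lower in JZL184. The 6 epithelial markers summed to 13862 to 16938 FPKM in control, 6985 to 10769 FPKM in SAP and 6386 to 8301 FPKM in JZL184 libraries. Krt20 and Krt8 weighed most, at means of 7157 and 3862 FPKM in control. Cdh1 went the other way, at means of 112, 144 and 172 FPKM in control, SAP and JZL184. It was higher without overlap in SAP against control (0.19) and JZL184 against SAP (0.44), where 11.3% and 6.23% of all genes were, and edgeR called neither. DESeq2 called 3 of the 6 epithelial markers lower in JZL184 rats against control, where 878 of 17587 genes were. The part of these cell types in the differences of Mmp3, Mmp13, Mmp14, Timp1, Adamts1 and Adamts9 was not tested.

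The sums of the other marker lists took no one order of groups. The 7 fibroblast markers summed to 55.8 to 69.8 FPKM in control, 71.2 to 92.0 FPKM in SAP and 47.8 to 95.6 FPKM in JZL184 libraries. Of them 1, Pdpn, was called higher by edgeR in JZL184 rats against control (log2 fold change 1.83), where 1.02% of all genes were. The 8 macrophage markers summed to 346 to 400, 161 to 436 and 105 to 305 FPKM. Of these, Cd163 (2.99) and Mrc1 (2.34) were called higher by edgeR in JZL184 rats against control, where 1.02% of all genes were. Both were also called higher in SAP rats against control without SAP libraries 1 and 2, where 0.482% of all genes were called. Csf1r (-1.42) and C1qa (-1.21) were lower without overlap in JZL184 rats against control, where 19.3% of all genes were, and the median of the 8 was -0.24. The 6 smooth muscle markers ranged from 1872 to 2070 FPKM in control, from 801 to 2023 FPKM in SAP and from 367 to 2115 FPKM in JZL184 libraries. Sums of 6 endothelial markers were 21.3 to 24.4, 26.5 to 38.7 and 25.6 to 35.2 FPKM, those of 5 mesothelial markers 1.90 to 2.30, 1.02 to 5.62 and 0.40 to 2.54 FPKM (Upk1b at 0 in 3 libraries), and those of 4 fat markers 22.8 to 28.5, 24.2 to 44.0 and 17.6 to 32.4 FPKM. With all libraries, edgeR called 0 genes of these 3 lists and of the neutrophil, epithelial and smooth muscle lists in any comparison, and the part of these cells in the members' differences was not tested.

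The genes whose log2 values of library-scaled counts followed Mmp3, Timp1 and Mmp2 most closely were taken from 16569 genes over 10 samples. For Mmp3 they were Dtx4, Bhlhe40, Il6st, LOC120093584 and Pla2g4f (Pearson r of 0.949, 0.944, 0.939, 0.935 and 0.935). For Timp1 they were LOC498276, Mgp, Cpxm1, Osr1 and Ccl3 (0.948, 0.947, 0.935, 0.934 and 0.925), and for Mmp2 Wnt4, LOC100911055, LOC102550654, Plvap and Mxra8 (0.964, 0.944, 0.937, 0.931 and 0.916). The samples include the group differences and share library depth, so these values only describe likeness.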

How the data were processed

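Total RNA of the ileum was sequenced as stranded mRNA libraries. The authors trimmed the reads, aligned them with HISAT2 to mRatBN7.2 and deposited the count of uniquely aligned reads per gene without normalization. The deposited FPKM, calculated by the authors, is given to 2 decimals. For the counting tool and annotation, nothing is given in the sources used here. The genes and lists were chosen with earlier results of these data known.

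All genes were fitted, for each pair of groups, by quasi-likelihood in edgeR 4.0.16 (R 4.3.3, TMM, default filter with minimum count 10). A call needed an adjusted p (Benjamini-Hochberg) under 0.05 together with a change beyond 2 or 0.5 times. The alternatives comprised DESeq2 1.42.0, limma-voom with quality weights (limma 3.58.1), DESeq2 size factors, no filter, no fold threshold, all groups in 1 fit, 3 control samples, a replicate block, gene length offsets (span 0.3), leaving out libraries, and log2(FPKM + 1) or log2(FPKM + 0.1) in the permutation tests. DESeq2 and the other lists without SAP libraries 1 and 2 were added after seeing the data. Scripts were tested on simulated data. The 10 genes were compared with 30 exact permutation tests of FPKM, whose p-values were not adjusted because the genes are a chosen list. All 10 genes are named in every comparison. From the other lists (further Mmp, Adamts and Adam genes, proteolysis regulators, inducers, substrates and 8 marker lists), called genes or up to 2 genes with the smallest p are named (1 regulator is not reported here), and for Mmp3, Timp1 and Mmp2 the 5 most alike genes (log2 of library-scaled counts, prior count 1). Genes of the chromosome 8 run were named after their values were seen. Python 3.11.15, numpy 2.4.6, pandas 2.3.3 and matplotlib 3.10.9 were used.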

Additional observations from a re-analysis of the deposited data

Results flagged for a closer look

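Mmp2 in JZL184 library 1 stood at 6.24 FPKM, where the other JZL184 libraries lay between 17.14 and 17.35 FPKM. The gap to the nearest library was 0.981 of the range of the group, above the critical value for 4 samples. Of 20 groups of libraries examined in this way (10 genes in SAP and JZL184 rats), this was the only one, and chance alone flags about 1 in 20.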

How the results depend on the processing

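The count of the 10 genes called for SAP against control (0) was 2 with DESeq2 (1.23% of all genes called) and 5 with 3 control samples and DESeq2 (8.46%). Without SAP libraries 1 and 2 it was 1 (0.482%), and 3 by DESeq2 (1.37%). For JZL184 against SAP (0) it was 3 with DESeq2 (6.98%) and 2 by DESeq2 without SAP libraries 1 and 2 (4.22%). With 1 library left out it was 0 to 2, where 0% to 4.21% of all genes were called. For JZL184 against control (3) it was 6 with DESeq2 (10.8% of all genes called) and with limma-voom (18.3%), 5 without the filter on low counts (3.93%), 6 with 3 control samples (18.1%), 7 with these and DESeq2 (18.9%), against 2.16% of all genes as reported, and 0 to 6 with 1 library left out. The replicate block, which also takes control libraries 1 and 2 as separate samples, gave 5 (9.65%), and 6 (8.62%) with gene length offsets besides. The replicate numbers share only a number, since deviations of same-numbered samples correlated at -0.46 to 0.13, and in the block fits with 3 control samples Mmp10 turned to -0.27 (-0.16 with the offsets) for JZL184 against control.

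Some estimates on the log2 scale changed sign. Adamts9 for JZL184 against SAP was 0.72 without SAP libraries 1 and 2 (0.71 by DESeq2, a fit chosen after seeing the data). For SAP against control, Timp2 was 0.032 with limma-voom, 0.39 without SAP libraries 1 and 2 (0.36 by DESeq2) and -0.20 to 0.15 with 1 library left out. Timp3 was 0.069 with 3 control samples, 0.060 with these and DESeq2, 0.16 without SAP libraries 1 and 2 (0.13 by DESeq2) and -0.41 to 0.36 with 1 library left out. For JZL184 against SAP, Mmp10 was 0.020 with limma-voom and -0.43 to 0.21 with 1 library left out. For JZL184 against control, Mmp2 was 0.064 with limma-voom, 0.041 with gene length offsets and -0.31 to 0.28 with 1 library left out. The causes were not tested. With 2 control samples and a low depth on Mmp3 and Mmp13, small differences against control could not be detected.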
